A study of Homo sapiens with 4 samples.

Results

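The m6A peaks of 8 cytoskeletal genes were examined in GES-1 cells: the beta-tubulin genes TUBB6, TUBB2A, TUBB and TUBB4B, the alpha-tubulin gene TUBA1B, the actin genes ACTB and ACTG1, and the vimentin gene VIM. The genes were chosen by name and from peaks already seen in these lists, in particular a strong TUBB6 peak listed in untreated cells alone, so where their peaks lie is a description and not a finding. A listed peak belonged to a gene when its summit fell inside the gene's hg19 span, whose ends were given to the nearest 1 kb. This rule found 3 peaks among 115281 listed peaks: 2 among the 52188 peaks of CDCA-treated cells and 1 among the 63093 peaks of untreated cells.

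GES-1 is a cell line labelled as human gastric epithelium, grown in RPMI-1640. The treated cells received chenodeoxycholic acid (CDCA, a primary bile acid) at 100 µM for 48 h, and the control cells received no treatment. From each, RNA freed of ribosomal RNA gave an input library and a library immunoprecipitated with an m6A antibody. The series is about the m6A demethylase ALKBH5 in bile acid-induced intestinal metaplasia. The 2 immunoprecipitation libraries were analysed as their authors' peak lists, and the inputs were not analysed here as samples. With 1 library per condition no test between conditions was possible, and a change of the cells cannot be told apart from a difference between 2 libraries. The lists hold no expression values, so the label of the cells was not checked here.

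N6-methyladenosine (m6A) is a common mark inside messenger RNA, found most often in long internal exons and around stop codons and the start of 3′ untranslated regions. Reader proteins bind it and can hasten the decay of a transcript or alter its translation. Microtubules are built from alpha- and beta-tubulin, actin filaments from actins, and vimentin forms the intermediate filaments of mesenchymal cells and of many cultured lines. Transcripts of ACTB, ACTG1, TUBA1B, TUBB and VIM are usually abundant in cultured cells.

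Most of these genes had no listed m6A peak in either condition. TUBB6 and TUBB2A each had 1 peak in CDCA-treated cells, and TUBB6 alone had 1 in untreated cells. TUBA1B, TUBB, TUBB4B, ACTB, ACTG1 and VIM had 0 in both lists. The share of all genes with a listed peak was not computed, since no hg19 annotation was used, so whether 6 of 8 genes without a peak is unusual is unknown. None of the 3 peaks had a partner, meaning a peak of the other condition that shares at least 1 bp with it. Among all peaks, 77.8% of the CDCA list and 81.8% of the control list had none. A missing partner was thus usual among all peaks. It was not usual among strong peaks, whose −log10 q (the authors' adjusted significance) was 100 or more: 8.76% of 4123 CDCA peaks and 12.4% of 4901 control peaks had no partner. Both TUBB6 peaks were of that kind. This is a description only, because TUBB6 was picked for a strong peak listed in untreated cells alone. A gene without a listed peak may still carry m6A, because no listed peak had a fold enrichment (summit height over local background, the authors' value) below 6. How reads that match several tubulin or actin copies were handled was not stated. Its effect on the listed and absent peaks of these genes was not tested.

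TUBB6 encodes a beta-tubulin isotype, and its peaks lay at different places of the gene in the 2 conditions. In CDCA-treated cells the peak covered 436 bp on chromosome 18 from 12311824 to 12312259, with its summit 4.01 kb from the 5′ end and 15.0 kb from the 3′ end of the gene span. In untreated cells the peak covered 1560 bp from 12325080 to 12326639, with its summit 18.4 kb from the 5′ end and 598 bp from the 3′ end. The summits were 14392 bp apart, and 12820 bp separated the peaks. Which exons or introns these positions fall in was not analysed here, since no hg19 annotation was used.

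The peaks of TUBB6 also differed in size within their own lists. The CDCA peak had a summit height of 184 in the authors' scale, a fold enrichment of 10.2 and a −log10 q of 116. It ranked 3644th of 52188 CDCA peaks by −log10 q, 2952nd by height, 17301st by fold and 6842nd by length. The control peak had a height of 2153, a fold of 19.9 and a −log10 q of 1915. It ranked 130th of 63093 control peaks by −log10 q, 102nd by height, 5725th by fold and 256th by length. The control peak was thus among the strongest of its list by −log10 q, height and length, and less so by fold. The CDCA peak had a common fold and a −log10 q in the top 6.98%. Taking each step of the height scale as 1 fragment, the CDCA summit rested on 288 fragments (exact Poisson 95% interval 256 to 323) and the control summit on 2496 (2399 to 2596). These intervals cover counting error only.

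**Figure D1:**
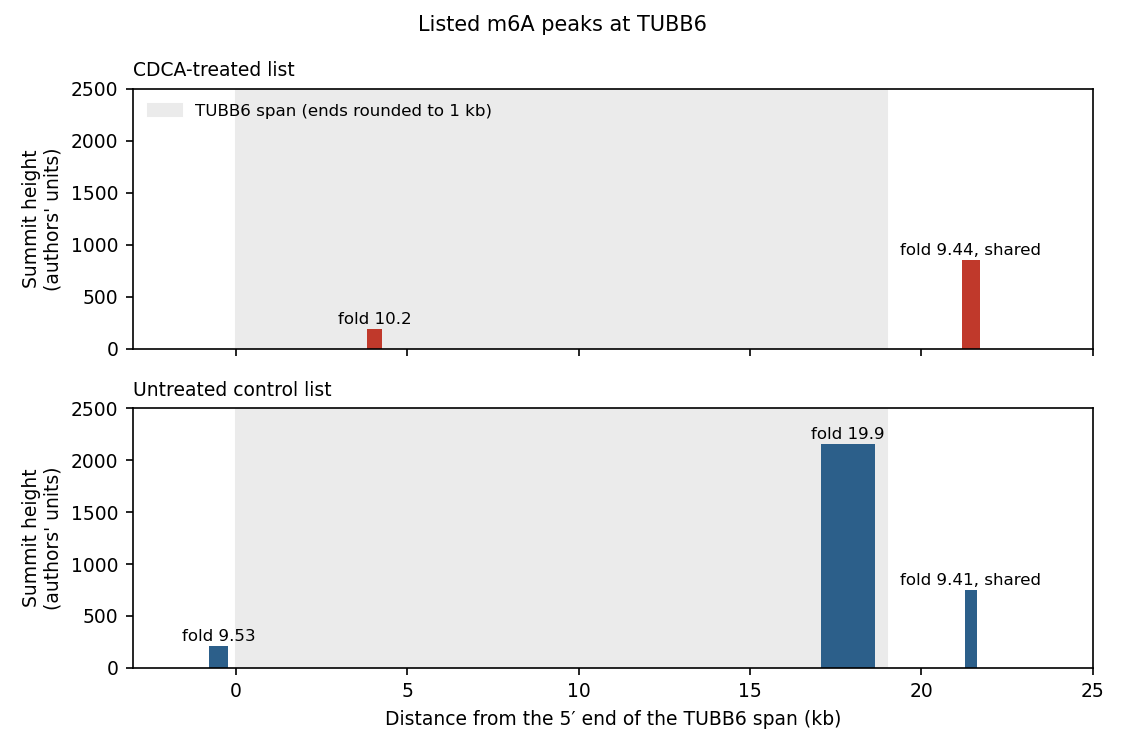
Listed m6A peaks around TUBB6 in CDCA-treated cells (upper panel) and untreated cells (lower panel), as bars from peak start to peak end with the summit height in the authors' scale; the x axis is the distance from the 5′ end of the gene span in kb and the numbers are fold enrichments. The CDCA list has a low peak near the 5′ end, the control list a tall one at the 3′ end, and both lists share a site just beyond the span.

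A site just past TUBB6 was listed in both conditions at a similar fold. It lay 2185 bp beyond the 3′ end of the span in the CDCA list, from 12329185 to 12329704, and 2263 bp beyond it in the control list, from 12329263 to 12329619. Its height was 848 in CDCA-treated cells and 752 in untreated cells, its fold 9.44 and 9.41, and its local background 89.0 and 79.0. The height scales of the 2 lists differ. In fragments, the summit rested on 1326 (1256 to 1399) in CDCA-treated cells and 872 (815 to 932) in untreated cells, with a −log10 q of 499 and 442. The summits of this neighbouring site were 55 bp apart. It began 2623 bp after the end of the control TUBB6 peak, whose summit was 2.86 times as high as that of the neighbour in the same library. The CDCA peak inside TUBB6 reached 0.217 times the height of the neighbour in its own library. In the RefSeq table of GRCh38.p14, which was used for gene order only, AFG3L2 overlaps TUBB6. Which of these peaks, the neighbouring site included, AFG3L2 covers in hg19 was not determined, since no hg19 annotation was used. The lists give no strand, so whether a peak here came from TUBB6 or from AFG3L2 was not tested.

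The edges of the gene span matter for the 5′ end of TUBB6. In untreated cells a further peak without a partner ended 247 bp before the span, from 12307219 to 12307753, with a height of 209, a fold of 9.53 and a −log10 q of 125. Its summit was 434 bp outside the span, less than the rounding of the span's end, and 4444 bp from the summit of the CDCA peak. Counting it would give TUBB6 a 5′ and a 3′ peak in untreated cells and the single 5′ peak in CDCA-treated cells. No control peak lay closer to the CDCA peak: the gap was 4071 bp.

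Peak numbers may tell of peaks that the lists leave out. Peaks carry running numbers that increase along each chromosome. A skipped number was taken to mark a peak that was numbered and not listed, without its position. Why numbers were skipped was not stated. In the CDCA list, 2 numbers were skipped in the 16.9 kb between the TUBB6 peak and the neighbouring site, the stretch that holds the position of the control peak. In the control list, 3 numbers were skipped in the 17.3 kb before its TUBB6 peak, the stretch that holds the position of the CDCA peak, and 0 between that peak and the neighbouring site. A numbered and unlisted peak at either position was therefore possible in the other library, and was not tested.

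Among peaks at least as significant as those of TUBB6, few lacked a partner. Of the 3644 CDCA peaks with at least the −log10 q of the CDCA TUBB6 peak, 249 had none (6.83%, exact Clopper-Pearson 95% interval 6.04 to 7.70). The share was 28.5% (27.4 to 29.6) among the 6873 CDCA peaks at least as long, and 16.8% (15.2 to 18.6) among the 1961 with at least its local background of 17.2. Of the 130 control peaks with at least its −log10 q, 2 had none (1.54%, 0.187 to 5.45), TUBB6 included, and of the 256 control peaks at least as long, 2 had none (0.781%, 0.0948 to 2.79). Of the 125 control peaks with at least its local background of 107, 15 had none (12.0%, 6.87 to 19.0). These shares describe the lists and are no test, since the TUBB6 peak was picked for lacking a partner.

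The fold of the TUBB6 peaks is given here beside that of peaks with a background at least as high, without an upper limit. It is a description only, because the strength of the control peak was among the values it was picked for. The local background, recovered from height and fold, was 17.2 under the CDCA peak and 107 under the control peak. Among the 1961 CDCA peaks with a background at least as high as under the CDCA peak, the median fold was 10.8 (quartiles 7.75 and 17.4), and TUBB6 had 10.2. Among the 125 control peaks with a background at least as high as under the control peak, the median fold was 9.90 (7.62 and 15.1), and 16 exceeded the 19.9 of TUBB6.

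**Figure D2:**
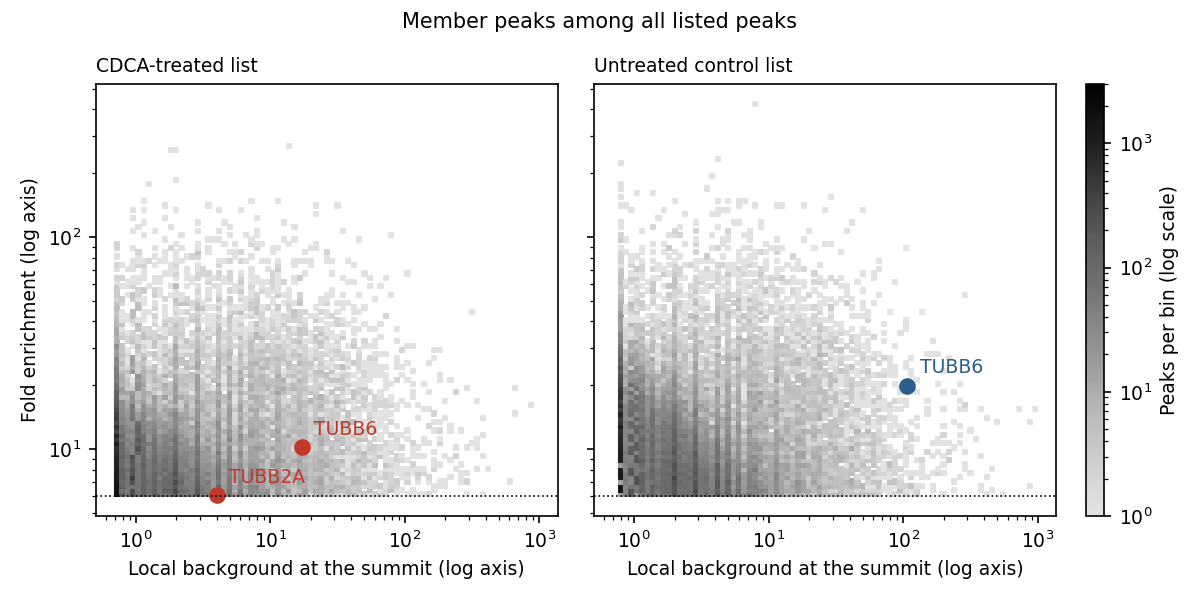
Fold enrichment against local background at the summit for all listed peaks of CDCA-treated cells (left) and untreated cells (right), both on log axes, with grey shade for the number of peaks per bin and coloured points for TUBB6 and TUBB2A; the dotted line is the fold of 6 below which nothing was listed. The control TUBB6 peak lies toward the right, at a background of 107, with a fold of 19.9, and the TUBB2A peak lies on the floor of the CDCA list.

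A pair of strong peaks of opposite listing, as at TUBB6, occurred at other places too. Of the 361 strong CDCA peaks without a partner, 26 (7.20%, 4.76 to 10.4) had the summit of a strong unpartnered control peak within the 14392 bp that separate the TUBB6 summits. Conversely, 27 of 608 strong unpartnered control peaks (4.44%, 2.95 to 6.40) had such a CDCA summit. TUBB6 is itself in both counts, because the distance was taken from its own summits. The control count also holds the unpartnered peak just before the TUBB6 span, whose summit lay 4444 bp from the CDCA summit. By −log10 q, the TUBB6 peaks ranked 249th among the 361 CDCA peaks and 2nd among the 608 control peaks.

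TUBB2A, a beta-tubulin known chiefly from neurons, had a weak peak in CDCA-treated cells and none listed in untreated cells. The peak covered 340 bp on chromosome 6 from 3153935 to 3154274, and its summit was 3.92 kb from the 5′ end and 1.08 kb from the 3′ end of the gene span. It had a height of 29.4, a fold of 6.08, a −log10 q of 13.4 and a local background of 4. At 46 fragments (33.7 to 61.4) its depth was a small part of that behind either TUBB6 peak. Its fold was just above the floor of 6: 4.49% of CDCA peaks had a lower one, and of the 2378 CDCA peaks with a fold no higher, 2189 (92.1%, 90.9 to 93.1) had no control partner. The control list skipped 4 numbers in the 123 kb between the listed peaks on either side of TUBB2A. Whether untreated cells had a peak under the floor at TUBB2A was not tested. The nearest control peak lay 6403 bp away and the closest CDCA neighbour 5.65 kb downstream of the span.

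TUBB and TUBB4B, beta-tubulins that are expressed in many tissues, had no listed peak. Around TUBB the nearest peak on the 5′ side was a site found in both conditions, 5995 bp upstream in the CDCA list (height 157, fold 6.60) and 5974 bp upstream in the control list (height 107, fold 6.75). These heights are on different scales. The nearest on the 3′ side lay 48.6 kb away in CDCA-treated cells and 72.2 kb away in untreated cells. Between these neighbours 8 numbers were skipped in the CDCA list and 9 in the control list, the most around any of the genes without a peak. For TUBB4B, the nearest 5′ peak was 7.81 kb away in CDCA-treated cells and 5.27 kb away in untreated cells. Its nearest 3′ peak was a shared site of 1153 bp in the CDCA list and 1187 bp in the control list, 34.3 kb downstream in both, with folds of 7.11 and 6.18. Both lists skipped 5 numbers between the neighbours of TUBB4B.

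TUBA1B, a major alpha-tubulin of proliferating cells, was the 1 gene for which a list skipped no number. In CDCA-treated cells the listed peaks 12.9 kb upstream and 17.2 kb downstream of the span carried consecutive numbers. No number was thus skipped in the 35.1 kb between them, which include all of TUBA1B. In untreated cells the neighbours were 14.0 kb upstream and 36.2 kb downstream, and 2 numbers were skipped between them. Control peaks with those numbers, if any, could lie anywhere in 55.2 kb, so that TUBA1B itself differed was not shown.

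The actin genes were without a listed peak as well. ACTB encodes beta-actin and ACTG1 gamma-actin, the cytoplasmic forms found in nearly all cells. For ACTB, the nearest peaks were 83.8 kb upstream and 20.9 kb downstream in CDCA-treated cells, and 56.0 kb upstream and 25.4 kb downstream in untreated cells, with 2 and 4 skipped numbers. For ACTG1, they were 4.78 kb upstream and 20.1 kb downstream in CDCA-treated cells, with 1 skipped number, and 15.9 kb upstream and 227 kb downstream in untreated cells, with 3. The upstream control neighbour of ACTG1 was a strong site with a partner in the CDCA list, with a fold of 19.96 and a height of 538 in CDCA-treated cells, and a fold of 84.9 and a height of 1102 in untreated cells. The height scales of the lists differ, and each fold also depends on the local background in its own list. No change between conditions was read from these values.

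VIM had the widest stretch free of listed peaks among the 6 genes without one in either list. In CDCA-treated cells the nearest peaks were 46.0 kb upstream and 117 kb downstream of the span, with 7 skipped numbers in the 173 kb between them. In untreated cells they were 4.97 kb upstream and 359 kb downstream, with 3 skipped numbers in 373 kb. The close upstream control peak, from 17264828 to 17265027, was of the minimum length of 200 bp and weak (height 21.6, fold 7.52, −log10 q 12.8). VIM-AS1, an antisense gene, overlaps VIM in the RefSeq table. The lists give no strand, so for a listed peak in the overlap the gene of origin would not have been known.

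Over the genes without a listed peak, a skipped number lay between the neighbours in 5 of 6 cases in the CDCA list and in 7 of 7 in the control list. Among all neighbouring listed peaks at least 20 kb apart, 68.6% of 21045 CDCA pairs and 60.8% of 21470 control pairs had a skipped number between them. The stretches around the genes without a peak were longer than that limit, 35.1 to 173 kb in the CDCA list and 43.6 to 373 kb in the control list. The pairs were not matched to them for length. With so few genes no more was read from these counts.

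The surroundings of the genes were not empty. Within 100 kb of each span, the genes themselves included, the CDCA list held 4 to 14 peaks per gene and 69 in all, and the control list 6 to 12 and 77 in all. Of these, 24 CDCA peaks (34.8%, 23.7 to 47.2) and 24 control peaks (31.2%, 21.1 to 42.7) had a partner, against 22.2% of all CDCA peaks and 18.2% of all control peaks. Strong peaks numbered 12 in the CDCA list and 14 in the control list, of which 10 and 10 had a partner, while 91.2% of all strong CDCA peaks and 87.6% of all strong control peaks had one. The intervals treat peaks as independent, although the peaks lie in 8 windows and the shared peaks of both lists mark the same sites. No enrichment can be read from them. The flanking peaks were not matched for strength with the rest of the lists, and none of these shares was tested. Both TUBB6 peaks are among the strong ones without. TUBA1B had the most shared sites around it, 6 in both lists, and TUBB6 and VIM the fewest, 1 in both.

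**Figure D3:**
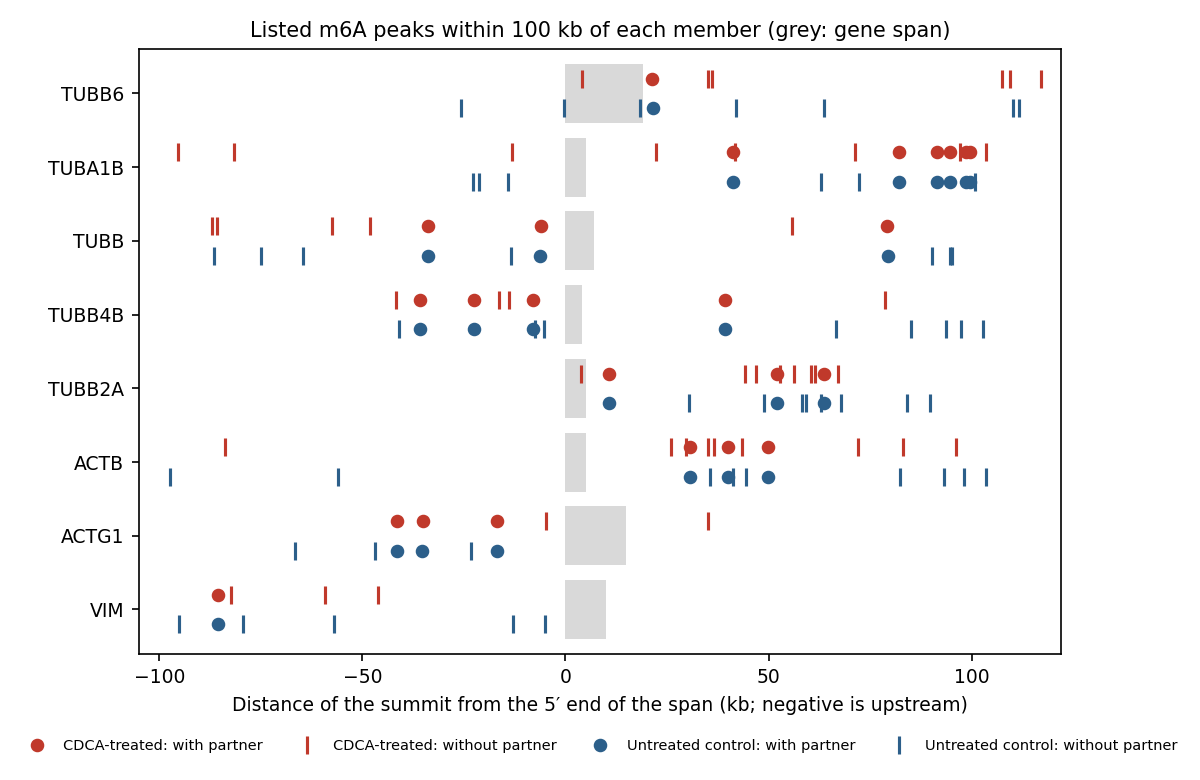
Summits of listed m6A peaks within 100 kb of each gene span (grey), by distance from the 5′ end of the span in kb, with CDCA-treated cells in red above untreated cells in blue; circles are peaks with a partner in the other list and ticks peaks without. Summits fall inside the grey span for TUBB6 in both lists and for TUBB2A in the CDCA list.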

How the data were processed

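Data were 1 peak list per m6A immunoprecipitation library, deposited as a table and as plain intervals with identical positions. MACS2 2.1.0, TopHat2 2.0.13 and hg19 are listed, without roles, in the submitters' processing notes. Input, filters and the handling of reads that match several tubulin or actin copies were not stated there. Per the file headers, the authors gave summit height as a signal (pileup), fold enrichment as a ratio, and −log10 of p-values and q-values. Heights were whole multiples of 0.640 (CDCA) and 0.862 (control) for 100% of peaks within 0.02 steps; depth in reads is otherwise unknown. Local background was (height + 1)/fold − 1.

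Peaks were assigned by summit to hg19 spans read from the rule for the 8 genes. Partners overlapped by at least 1 bp; strand was not used. The named items are all 8 genes, the strongest peak of each in each list, and every unpartnered member peak with a −log10 q of at least 100. Neighbouring peaks, skipped numbers and the 20 kb and 100 kb limits were added after the values were seen. The genes and lists were chosen with earlier results of these data known. Gene neighbours came from RefSeq GRCh38.p14 (names only). With 1 library per condition there was no test; shares carry exact Clopper-Pearson and fragments exact Poisson 95% intervals. The tools were scipy 1.17.1, pandas 2.3.3, numpy 2.4.6, matplotlib 3.10.9 and Python 3.11.15; the partner and skipped-number steps were checked on artificial lists.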

Additional observations from a re-analysis of the deposited data

How the results depend on the processing

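Of 56 alternative values, 36 kept the reported value or stayed near it and 20 moved. The TUBB6 peaks stayed under every threshold tried, and 0 member peaks gained a partner under any definition of partner. That last outcome was fixed beforehand: a stricter rule cannot raise a count of 0. The nearest peaks of the other list lay 4071, 2546 and 6403 bp away, beyond the limits of 200 bp between summits and 500 bp between peaks. Genes with 0 peaks could likewise gain none at a stricter −log10 q, so many of the 36 values could not move. The 2 CDCA peaks became 1 at a −log10 q of at least 20, 50 or 100 or a fold of at least 10, because TUBB2A dropped to 0 (it has 0 peaks at a −log10 q of at least 50). Widening the spans by 2 kb gave 2 control peaks, adding the one before TUBB6. The share of all peaks without a partner, 77.8% in CDCA and 81.8% in control, became 51.8% and 70.5% at a −log10 q of at least 20, 19.1% and 34.9% at 50, 8.76% and 12.4% at 100, and 62.1% and 74.5% at a fold of at least 10. It became 84.3% and 87.0% with a reciprocal overlap of 50%, 80.9% and 84.2% with summits within 200 bp, and 70.9% and 75.9% with peaks within 500 bp. The cause was not tested. Rescaled heights of shared member peaks gave no value, as no member peak was shared. No paired analysis was possible because each condition had 1 library. The TUBB2A summit rested on 46 fragments, against 288 (CDCA) and 2496 (control) at TUBB6, and the effect of depth was not tested.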
